A study of Mus musculus with 8 samples.

Results

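The 38 genes described here are effector genes induced by type I interferon, taken as a named list: the Ifit genes, the Oas family, the Mx genes, Rsad2, the Ifitm genes, the genes of the ISG15 system and others of the antiviral program. Of the 38, 35 had at least 1 probe set of their own among the 45101 on the array (59 probe sets in all), and 32 were measured well enough to be tested among 8763 genes. Ifi44 and Oas1g had no probe set of their own, and Isg15 was read only by a probe set shared with another gene, which was not used. Mx2, Oas3 and Oasl1 did not reach a log2 value of 5 on 2 of the 8 arrays and were not tested.

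The cells were dendritic cells sorted from the spleen as CD8α+ or CD8α- populations. They came from female C57BL/6 mice that were either wild type or RAG2-/-, a knockout that leaves an animal without T and B lymphocytes while natural killer and myeloid cells remain. No group was treated. The sample labels give an age of 10 weeks and the design text a range of 8 to 10 weeks. The series asks how T and B cells shape these dendritic cells. Each of the 4 groups (wild type CD8α-, wild type CD8α+, RAG2-/- CD8α- and RAG2-/- CD8α+) was read on 2 Affymetrix arrays. The labels do not say whether the 2 arrays of a group came from separate mice or whether mice were pooled, so the p-values measure the spread between these arrays, which may be technical.

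Type I interferons bind a receptor of 2 chains, IFNAR1 and IFNAR2, whose kinases JAK1 and TYK2 pass the signal on by phosphorylation. The complex ISGF3, which holds STAT2 and IRF9, then binds the interferon-stimulated response element (ISRE) in the promoters of target genes. The products sense or degrade viral RNA, block viral entry and translation, or feed back on the pathway. A low level of this program is kept up in the spleen without infection by small amounts of interferon, and conventional dendritic cells are among the cells that carry it.

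The letters of the ISRE core, GAAANNGAA, were searched on both strands in RefSeq promoter windows of 250 bases before to 50 bases after a gene's start (build GRCm38.p6). A window was given for 29 of the 38 genes, and the core stood in 16 of them (55.2%), against 9.76% of all 27025 genes with a window. More than 1 core was found in 11 of the 29 (37.9%), against 0.736% of all genes. The composite letters bound by ETS and IRF factors together, GGAANNGAA, were found in 17.2% of the 29 and 9.42% of all genes. The letters of the gamma-activated sequence GAS, TTCNNNGAA, were found in 27.6% and 9.55%. Matches of different motifs, or of neighbouring cores, may share bases.

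The stretch from -160 to -1 before the start is printed for 8 genes on which the results below turn, 5′ to 3′ in the direction of the gene, with ISRE cores of either strand in capitals. Ifit1 at chr19:34640729-34640888 (plus strand), Ifit3 at chr19:34583369-34583528 (plus strand), Oas1a at chr5:120907526-120907685 (minus strand) and Ddx60 at chr8:61927927-61928086 (plus strand) are shown because they carry more than 1 core and were lower in CD8α+ cells of both genotypes. Rsad2 at chr12:26456453-26456612 (minus strand) and its neighbour Cmpk2 at chr12:26469055-26469214 (plus strand) are shown because both were lower in CD8α+ cells of both genotypes while only Rsad2 has a core in this stretch. Bst2 at chr8:71537473-71537632 (minus strand) has 2 cores and was not called in any comparison of the main fit, though it was under other settings given below. Ifi44l at chr3:151762892-151763051 (minus strand) had the greatest difference between genotypes among the 32 genes.
Ifit1: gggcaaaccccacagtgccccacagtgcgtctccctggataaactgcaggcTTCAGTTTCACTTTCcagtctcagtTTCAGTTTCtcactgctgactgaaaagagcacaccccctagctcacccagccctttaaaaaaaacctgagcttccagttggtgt
Ifit3: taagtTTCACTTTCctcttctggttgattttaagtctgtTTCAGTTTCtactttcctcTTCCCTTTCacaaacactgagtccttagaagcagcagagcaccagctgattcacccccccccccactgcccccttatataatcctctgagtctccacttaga
Oas1a: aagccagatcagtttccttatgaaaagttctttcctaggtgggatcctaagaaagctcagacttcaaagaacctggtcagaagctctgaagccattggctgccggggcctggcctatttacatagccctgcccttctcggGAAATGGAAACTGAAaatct
Ddx60: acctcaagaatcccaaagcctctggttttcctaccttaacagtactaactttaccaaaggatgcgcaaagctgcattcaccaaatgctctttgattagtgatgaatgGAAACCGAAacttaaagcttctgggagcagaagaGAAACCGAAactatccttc
Rsad2: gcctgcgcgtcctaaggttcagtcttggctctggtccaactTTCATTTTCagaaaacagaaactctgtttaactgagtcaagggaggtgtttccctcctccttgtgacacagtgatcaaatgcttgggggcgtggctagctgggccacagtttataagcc
Cmpk2: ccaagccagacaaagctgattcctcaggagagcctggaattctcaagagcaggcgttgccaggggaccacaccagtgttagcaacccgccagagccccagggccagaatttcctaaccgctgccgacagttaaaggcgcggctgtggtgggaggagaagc
Bst2: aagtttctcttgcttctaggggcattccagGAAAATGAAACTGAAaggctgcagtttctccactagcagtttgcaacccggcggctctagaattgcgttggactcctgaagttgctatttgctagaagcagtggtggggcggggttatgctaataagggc
Ifi44l: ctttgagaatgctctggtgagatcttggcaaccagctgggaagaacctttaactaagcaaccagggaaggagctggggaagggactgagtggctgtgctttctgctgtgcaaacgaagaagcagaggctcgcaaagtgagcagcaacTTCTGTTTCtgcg
Cores in Ifit1, Oas1a and Bst2 lie so close that they share bases, which is why their capitals run on. A match is a description of these letters, not evidence of binding.

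**Figure D1:**
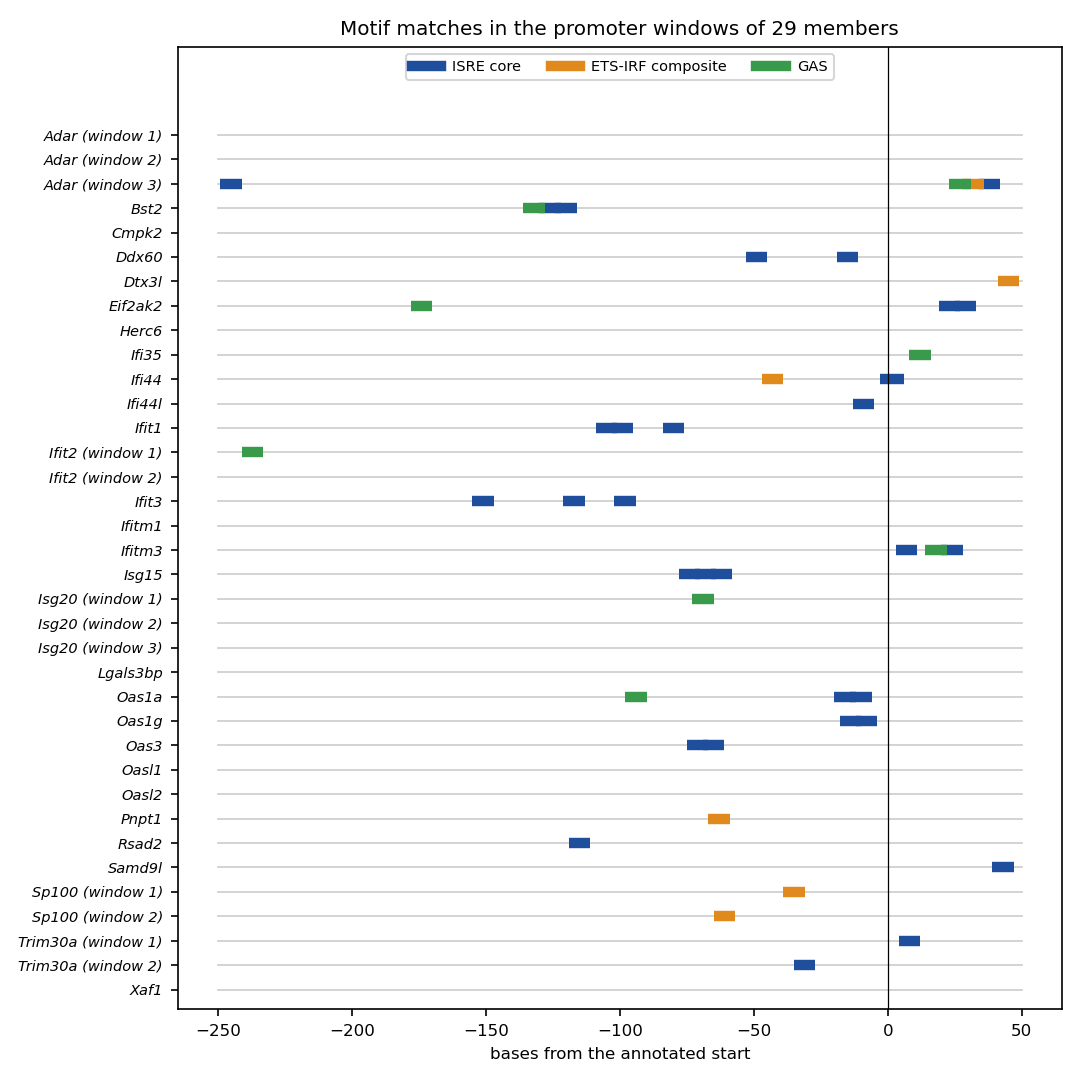
Positions of ISRE core, ETS-IRF composite and GAS letters (coloured bars) in each promoter window of the 29 genes with one (grey lines, 36 windows), in bases from the annotated start. ISRE cores lie in 16 of the 29 genes, and the windows of Cmpk2, Herc6, Ifitm1, Lgals3bp, Oasl1, Oasl2 and Xaf1 hold none of the motifs drawn.

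All values below are log2 expression values as deposited by the authors, and a change is a difference between group means on that scale. Calls rest on limma's moderated test, with p-values adjusted by Benjamini-Hochberg over all 8763 genes and a threshold of 0.05. Where every array of the lower group was below 5, the fold is given as "at least", against a level of 5. Levels are compared between arrays for 1 gene at a time, never between genes.

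The sorts carried their label: Cd8a read 11.73 to 12.51 on the CD8α+ arrays and 5.80 to 7.70 on the CD8α- arrays. Rag2 read below 5 on all 8 arrays and so does not check the genotype, while the B and plasma cell markers summed to 2480 to 4660 (linear values) on wild type arrays and 287 to 435 on RAG2-/- arrays. The sum over the list of monocyte and red pulp macrophage markers was higher on RAG2-/- arrays. It was 57000 to 60700 against 11200 to 14300 in CD8α- cells and 21100 to 26500 against 7710 to 9810 in CD8α+ cells. Of the 16 on that list 14 were tested, and 14 were called higher in RAG2-/- CD8α- cells and 10 in RAG2-/- CD8α+ cells. Neutrophil transcripts were high on 2 RAG2-/- arrays, CD8α- replicate 2 (8610) and CD8α+ replicate 1 (3130), against 70.7 to 101 on wild type arrays. Of the plasmacytoid dendritic cell markers, Siglech reached 5 only on RAG2-/- CD8α+ replicate 2 (5.36), where Ccr9 (10.45) and Atp1b1 (8.46) also read highest. Spib read lower there (7.88) than on any wild type array (8.09 to 9.94). Pacsin1 (5.73) stood no higher there than on wild type CD8α+ replicate 1 (5.78). Ly6d, Cox6a2, Lag3 and Smim5 stayed below 5 on all 8 arrays. Of the 13 listed 6 were tested, and 0 were called between genotypes in either subset. The RAG2-/- arrays share 1 lowest value, 2.23, on 18217 to 18893 probe sets each, and the wild type arrays do not. The values of the genotypes thus differ in how they were made, and genotype and processing cannot be told apart.

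In wild type mice CD8α+ cells had less of this program than CD8α- cells. Of the 32 genes, 17 were lower in CD8α+ cells, 1 was higher (Mx1) and 14 were not called. Among the 17, Ifit1, Oas1a and Ddx60 passed the filter through CD8α- arrays alone, so their lower level in CD8α+ cells was built in. Across all genes tested 17.1% were called in this comparison (9.23% higher and 7.87% lower), against 56.2% of the 32 (53.1% lower). The median change of the 32 was -1.21, and that of all genes 0.01. In RAG2-/- mice 17 of the 32 were lower in CD8α+ cells and 0 higher, 53.1% called where 21.8% of all genes were called and 10.7% were lower, with a median of -1.02 against 0.02. In sorted bulk RNA, fewer cells carrying a transcript and less of it in each cell cannot be told apart. The sum of the macrophage markers was also lower in CD8α+ than in CD8α- cells of each genotype. Of the 14 tested, 3 were called lower in the wild type and 5 in RAG2-/- mice, with 0 higher. As a list these markers were mixed in the wild type, with 5 changes positive and 9 negative (median -0.21). In RAG2-/- mice 2 were positive and 12 negative (median -0.85). Their part in the result was not tested.

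The fall in CD8α+ cells was found in both genotypes for 16 genes: Cmpk2, Ddx60, Ifi27, Ifit1, Ifit3, Ifitm1, Ifitm3, Isg20, Oas1a, Oas2, Oasl2, Parp14, Rsad2, Rtp4, Usp18 and Xaf1. Ifit2 was called in the wild type alone, Herc6 in RAG2-/- mice alone, and 13 genes were called in neither: Adar, Bst2, Dtx3l, Eif2ak2, Ifi204, Ifi35, Ifi44l, Lgals3bp, Parp9, Pnpt1, Samd9l, Sp100 and Trim30a. Promoter windows were at hand for 11 of the 16 and 11 of the 13, and an ISRE core stood in 6 of each (54.5%). Ifit1, Oas1a and Ddx60 passed the filter on low values through their CD8α- arrays alone, so a difference between subsets was built into their passing.

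**Figure D2:**
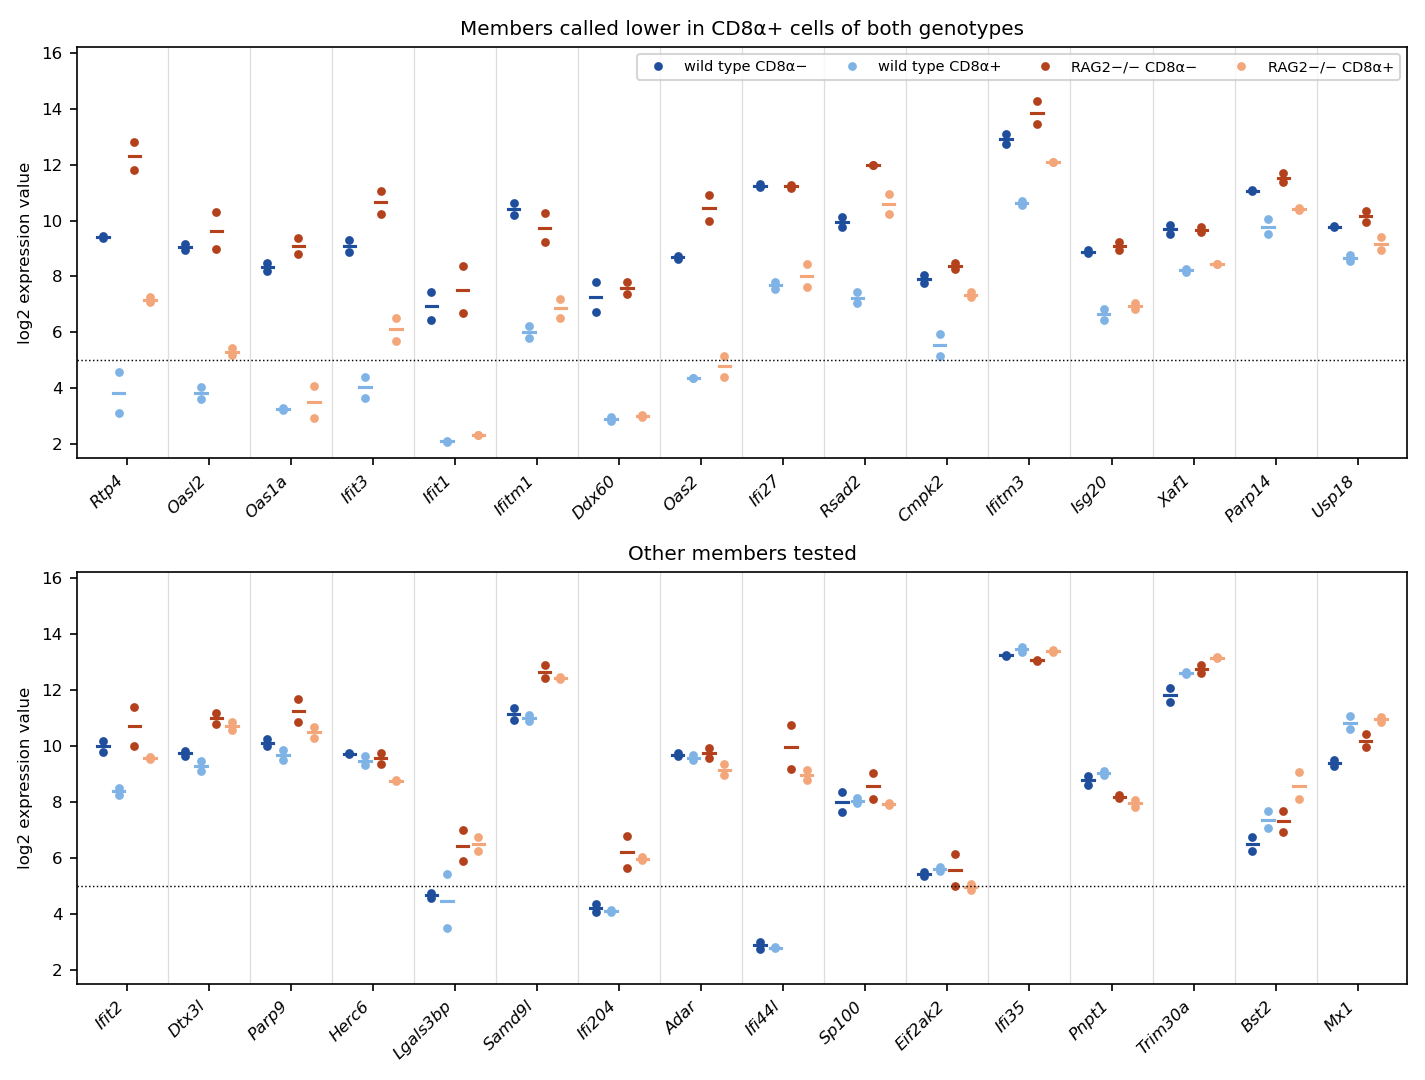
Log2 expression value of each of the 32 tested genes on each array (points; short lines are means of the 2 arrays of a group; the dotted line is the level of 5). In the upper panel, the 16 genes called lower in CD8α+ cells of both genotypes, the pale points of CD8α+ cells lie below the dark points of CD8α- cells of the same genotype; Ifit1, Oas1a and Ddx60 stay below 5 on all 4 CD8α+ arrays.

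The Ifit genes encode proteins that bind foreign RNA ends and hold back translation. Ifit1 read 6.44 and 7.43 on the wild type CD8α- arrays and 2.11 and 2.10 on the wild type CD8α+ arrays. On the RAG2-/- arrays it read 8.37 and 6.69 in CD8α- cells and 2.35 and 2.32 in CD8α+ cells. All CD8α+ arrays were low and did not overlap the CD8α- arrays. Ifit1 was at least 3.83-fold lower in wild type CD8α+ cells (adjusted p = 0.00117) and at least 5.77-fold lower in RAG2-/- CD8α+ cells (adjusted p = 0.000815). As it passed the filter through CD8α- arrays alone, these p-values are not independent support. With all values below 5 raised to 5 the wild type change was -1.94 and lost its call (adjusted p = 0.0562).

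Ifit3, which works with Ifit1 on RNA, read 9.31 and 8.89 in wild type CD8α- cells and 3.67 and 4.41 in wild type CD8α+ cells. In RAG2-/- cells the values were 11.04 and 10.25 in CD8α- cells and 6.52 and 5.70 in CD8α+ cells. CD8α+ cells were low in both genotypes, but the RAG2-/- CD8α+ arrays stood above the wild type ones and above 5. It was at least 17.2-fold lower in wild type CD8α+ cells (adjusted p = 0.000309) and changed by -4.53 (SE 0.41, adjusted p = 0.000486) in RAG2-/- cells. Ifit2, their relative at the same place on chromosome 19, kept a substantial level in every group, from 8.50 and 8.26 on wild type CD8α+ arrays to 11.40 and 9.99 on RAG2-/- CD8α- arrays. Its change was -1.61 (SE 0.42, adjusted p = 0.0411) in the wild type and -1.13 (SE 0.42, adjusted p = 0.106) in RAG2-/- mice. The wild type call of Ifit2 was lost when any 1 wild type array was left out (adjusted p = 0.217 and 0.124 with the first and second CD8α- array left out, 0.125 and 0.194 with the first and second CD8α+ array left out), and without either RAG2-/- CD8α+ array (0.074).

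The oligoadenylate synthetases make the messenger that switches on RNase L. Oas1a read 8.20 and 8.50 in wild type CD8α- cells and 3.30 and 3.24 in wild type CD8α+ cells. The RAG2-/- values were 9.37 and 8.79 in CD8α- cells and 4.08 and 2.95 in CD8α+ cells. It was thus below 5 on all CD8α+ arrays, and was at least 10.2-fold (adjusted p = 0.000242) and at least 16.9-fold (adjusted p = 0.000156) lower than in CD8α- cells of the same genotype. Like Ifit1, Oas1a passed the filter through CD8α- arrays alone, which limits these p-values in the same way. Whether its probe set also reads the closely related neighbour Oas1g was not tested.

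Oas2 read 8.75 and 8.64 in wild type CD8α- cells and 4.36 and 4.36 in wild type CD8α+ cells. In RAG2-/- mice the values were 10.90 and 10.00 in CD8α- cells and 5.17 and 4.41 in CD8α+ cells. The 2 wild type CD8α+ arrays gave equal values, and 1 RAG2-/- CD8α+ array passed 5. Oas2 was at least 13-fold lower in wild type CD8α+ cells (adjusted p = 0.000304) and changed by -5.66 (SE 0.35, adjusted p = 0.000115) in RAG2-/- cells. Their relative Oasl2 read 9.15 and 8.96 against 3.62 and 4.05 in the wild type. In RAG2-/- mice Oasl2 read 10.30 and 8.97 against 5.45 and 5.18. It was at least 16.6-fold lower in wild type CD8α+ cells (adjusted p = 0.000277), with a RAG2-/- change of -4.32 (SE 0.41, adjusted p = 0.000587). The other measured relatives, Oas3 and Oasl1, had group means of 2.17 to 2.38 and 3.30 to 4.80, all under the level of 5.

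Rsad2 encodes viperin, an enzyme that makes a chain-terminating nucleotide, and Cmpk2 next to it on chromosome 12 a kinase that supplies its substrate. Rsad2 read 9.76 and 10.14 in wild type CD8α- cells and 7.05 and 7.43 in wild type CD8α+ cells. On RAG2-/- arrays it read 11.97 and 11.98 in CD8α- cells and 10.24 and 10.96 in CD8α+ cells. The gene was present in every group, lowest on wild type CD8α+ arrays, and the subsets did not overlap in either genotype. The change in CD8α+ cells was -2.71 (SE 0.28, adjusted p = 0.000853) in the wild type and -1.38 (SE 0.28, adjusted p = 0.0139) in RAG2-/- mice. The RAG2-/- call was lost without CD8α+ replicate 1 (-1.02, adjusted p = 0.0623) and without CD8α- replicate 1 (-1.39, adjusted p = 0.0599). A second probe set gave -2.69 and -1.53.

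Cmpk2 read 8.07 and 7.77 in wild type CD8α- cells and 5.93 and 5.17 in wild type CD8α+ cells. The RAG2-/- values, 8.27 and 8.48 in CD8α- cells and 7.44 and 7.26 in CD8α+ cells, lay closer together. Its changes were -2.37 (SE 0.27, adjusted p = 0.00138) and -1.03 (SE 0.27, adjusted p = 0.0374). The RAG2-/- call was lost when any 1 RAG2-/- array was left out, with changes from -1.13 without CD8α- replicate 1 to -0.92 without CD8α- replicate 2 (adjusted p = 0.0903 and 0.118; 0.103 without CD8α+ replicate 1 and 0.139 without CD8α+ replicate 2), and without either wild type CD8α- array (0.0678).

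The Ifitm proteins sit in membranes and block the fusion of viruses. Ifitm1 read 10.20 and 10.64 in wild type CD8α- cells and 6.23 and 5.80 in wild type CD8α+ cells. In RAG2-/- mice it read 9.22 and 10.27 in CD8α- cells and 7.21 and 6.52 in CD8α+ cells. The subsets were apart in both genotypes, with changes of -4.40 (SE 0.40, adjusted p = 0.000538) and -2.88 (SE 0.40, adjusted p = 0.00282). Ifitm3, at the same place on chromosome 7, was present in every group, at 13.10 and 12.74 against 10.57 and 10.71 in the wild type and 14.26 and 13.45 against 12.09 and 12.09 in RAG2-/- mice. Its changes were -2.28 (SE 0.28, adjusted p = 0.00186) and -1.76 (SE 0.28, adjusted p = 0.00512).

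Bst2, or tetherin, holds budding virus on the cell surface and in mice marks plasmacytoid dendritic cells. It went the other way, at 6.23 and 6.74 against 7.05 and 7.67 in the wild type and 6.93 and 7.68 against 8.10 and 9.06 in RAG2-/- mice. The higher CD8α+ values did not overlap the CD8α- values, but neither change was called, at 0.88 (SE 0.42, adjusted p = 0.217) and 1.28 (SE 0.42, adjusted p = 0.0696). The RAG2-/- change was called after quantile normalization (1.26, adjusted p = 0.0438). Between genotypes Bst2 changed by 0.82 (SE 0.42, adjusted p = 0.154) in CD8α- cells and 1.22 (SE 0.42, adjusted p = 0.0558) in CD8α+ cells, and the latter was called under several other settings, among them quantile normalization (0.0334), the filter at a log2 value of 7 (0.0458) and limma-trend (0.0438). The highest value, 9.06, came from RAG2-/- CD8α+ replicate 2. Siglech also reached 5 on that array, while other markers of plasmacytoid cells were mixed there. The part of plasmacytoid cells in this value was not tested.

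Mx1 belongs to a family of dynamin-like GTPase genes, and only its RNA was measured here. It read 9.51 and 9.28 in wild type CD8α- cells and 10.60 and 11.07 in wild type CD8α+ cells, with no overlap. The change of 1.44 (SE 0.25, adjusted p = 0.00747) made Mx1 the 1 gene of the 32 called higher in CD8α+ cells. It lost the call without CD8α- replicate 2 (1.32, adjusted p = 0.0641) and without CD8α+ replicate 2 (1.20, adjusted p = 0.0549). In RAG2-/- mice Mx1 read 10.42 and 9.96 against 11.04 and 10.85, a change of 0.75 that was not called (adjusted p = 0.0704). Mx2 read under 5 on the mean of each group.

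Of the genes that act on nucleic acid, Ddx60, a helicase-like cofactor of RNA sensing, read 7.80 and 6.73 in wild type CD8α- cells and 2.98 and 2.85 in wild type CD8α+ cells. The RAG2-/- values were 7.79 and 7.36 in CD8α- cells and 3.05 and 2.97 in CD8α+ cells. Every CD8α+ array was below 5, so Ddx60 was at least 4.81-fold lower in the wild type (adjusted p = 0.000282) and at least 5.98-fold lower in RAG2-/- mice (adjusted p = 0.000234). This gene too passed the filter through CD8α- arrays alone, so the p-values are not independent support. A second, dimmer probe set for Ddx60, which did not pass the filter, gave differences of -1.62 and -1.04.

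Isg20, an exonuclease that degrades RNA, read 8.93 and 8.84 against 6.85 and 6.44 in the wild type and 9.24 and 8.93 against 6.83 and 7.04 in RAG2-/- mice. Its changes were close in size, -2.24 (SE 0.21, adjusted p = 0.000608) and -2.15 (SE 0.21, adjusted p = 0.000669). Adar (an RNA editing enzyme), Eif2ak2 (the kinase PKR), Ifi204 (a DNA-binding relative of IFI16) and Pnpt1 (a mitochondrial exonuclease) were called in neither genotype. Their wild type changes ran from -0.11 for Ifi204 to 0.26 for Pnpt1, and their RAG2-/- changes from -0.60 for Adar to -0.22 for Ifi204. Dimmer probe sets of Adar gave RAG2-/- changes of -0.54 and 0.79 (limma adjusted p among probe sets = 0.277 and 0.0526), so its direction depends on the probe set.

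In the ISG15 system, Usp18, the protease that removes ISG15 and damps the receptor, read 9.80 and 9.77 against 8.76 and 8.54 in the wild type and 10.35 and 9.95 against 9.41 and 8.93 in RAG2-/- mice. Its changes were called in both, at -1.14 (SE 0.23, adjusted p = 0.0158) and -0.97 (SE 0.23, adjusted p = 0.0252). The wild type call was lost without any 1 wild type array (adjusted p = 0.0948 and 0.0871 with the first and second CD8α- array left out, 0.0528 and 0.0988 with the first and second CD8α+ array left out). The RAG2-/- call of Usp18 was lost without RAG2-/- CD8α- replicate 1 (-0.77, adjusted p = 0.115), without RAG2-/- CD8α+ replicate 2 (-0.74, adjusted p = 0.109) and without either wild type CD8α- array (adjusted p = 0.0555). Herc6, the mouse ligase for ISG15, read 9.74 and 9.37 against 8.78 and 8.74 in RAG2-/- mice and 9.73 and 9.71 against 9.30 and 9.65 in the wild type. Its changes were -0.79 (SE 0.20, adjusted p = 0.0334) and -0.25 (SE 0.20, adjusted p = 0.49), and the RAG2-/- call was lost without CD8α+ replicate 1 (adjusted p = 0.107), CD8α+ replicate 2 (0.109), CD8α- replicate 1 (0.139) or either wild type CD8α- array (0.0661).

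The ADP-ribosyl transferase genes Parp14 and Parp9 and the ubiquitin ligase gene Dtx3l, which forms a complex with PARP9, lie close together on chromosome 16. Parp14 read 11.10 and 11.04 against 9.53 and 10.04 in the wild type and 11.70 and 11.36 against 10.37 and 10.44 in RAG2-/- mice. Its changes of -1.28 (SE 0.22, adjusted p = 0.00825) and -1.12 (SE 0.22, adjusted p = 0.0127) were called. Parp14 lost the wild type call without CD8α- replicate 1 (adjusted p = 0.065) or replicate 2 (0.0552), and the RAG2-/- call without CD8α+ replicate 1 (0.0648), CD8α+ replicate 2 (0.052) or CD8α- replicate 1 (0.0663). Its neighbours changed by -0.44 (Parp9, adjusted p = 0.404) and -0.45 (Dtx3l, adjusted p = 0.248) in the wild type and by -0.78 and -0.29 in RAG2-/- mice (adjusted p = 0.117 and 0.42), so neither was called.

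Rtp4, a chaperone for membrane receptors, read 9.45 and 9.39 in wild type CD8α- cells and 4.57 and 3.13 in wild type CD8α+ cells. On RAG2-/- arrays it read 12.80 and 11.81 in CD8α- cells and 7.25 and 7.08 in CD8α+ cells. Both genotypes had a wide gap between subsets, at a higher level on the RAG2-/- arrays. The gene was at least 21.4-fold lower in wild type CD8α+ cells (adjusted p = 0.000465), and its RAG2-/- change was -5.14 (SE 0.49, adjusted p = 0.000594). A second probe set of Rtp4 stayed under 5 in the mean of every group.

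Ifi27, a small membrane protein gene, read 11.18 and 11.32 against 7.56 and 7.82 in the wild type and 11.16 and 11.28 against 8.46 and 7.61 in RAG2-/- mice. It was well above 5 in every group and fell in CD8α+ cells, with changes of -3.56 (SE 0.29, adjusted p = 0.000304) and -3.19 (SE 0.29, adjusted p = 0.000473). Its second probe set gave -3.09 and -2.48. Xaf1, which promotes cell death, changed by -1.47 (SE 0.19, adjusted p = 0.00214) and -1.25 (SE 0.19, adjusted p = 0.00384). The other genes, Ifi35, Ifi44l, Lgals3bp, Samd9l, Sp100 and Trim30a, were not called. Their changes ran from -0.22 (Lgals3bp) to 0.77 (Trim30a) in the wild type and from -1.01 (Ifi44l) to 0.40 (Trim30a) in RAG2-/- mice. For Trim30a a second probe set gave 1.15 in the wild type (adjusted p among probe sets = 0.0117), and the change of 0.77 (adjusted p = 0.0527) was called under other settings, such as limma-trend (0.0208) and the filter at 7 (0.0444).

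Across the 32 genes the gap between subsets in the wild type ran with that in RAG2-/- mice: 28 had the same sign in both, Pearson's r was 0.95 and Spearman's rho 0.927. This is across genes, which share the same 8 arrays and are not independent replicates. The gap was larger in size in RAG2-/- mice for 14 of the 32. In the test of the difference itself (the genotype change in CD8α+ cells minus the one in CD8α- cells) limma called 0 of the 32, where it called 21 of all genes (0.24%; 0.0799% positive and 0.16% negative). At an unadjusted p under 0.05 there were 4: Cmpk2 (1.34, SE 0.39), Rsad2 (1.33, SE 0.40) and Ifitm1 (1.52, SE 0.57), each with a narrower gap in RAG2-/- mice, and Oas2 (-1.33, SE 0.49), with a wider one. Their adjusted p-values ran from 0.44 to 0.586. An offset shared by all arrays of 1 genotype cancels in this difference.

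**Figure D3:**
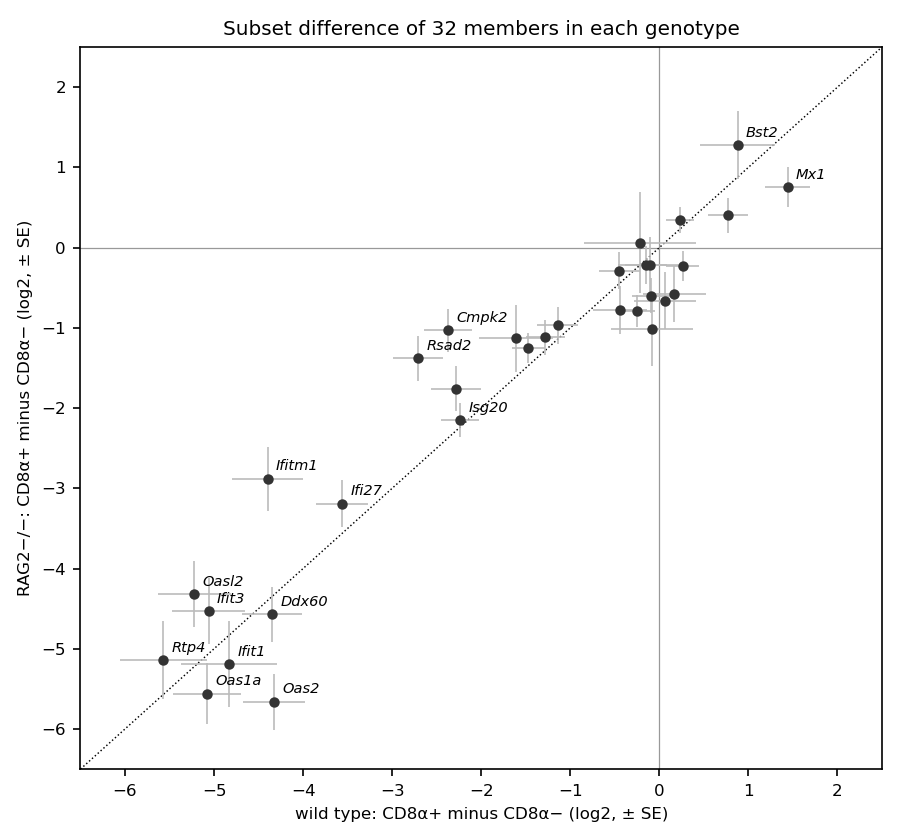
Difference between CD8α+ and CD8α- cells in RAG2-/- mice (vertical) against that in wild type mice (horizontal) for the 32 tested genes, in log2 units with standard errors; the dotted line marks equal differences. Points run along the line from Rtp4, Oas1a and Oas2 at the lower left to Mx1 and Bst2 at the upper right, with Rsad2, Cmpk2 and Ifitm1 above the line.

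Between genotypes, 13 of the 32 genes were called in CD8α- cells, 12 higher and 1 lower in RAG2-/- mice, and 13 in CD8α+ cells, 11 higher and 2 lower. These shares, 40.6% each, were near the background, 40.5% of all genes in CD8α- cells (23.4% higher) and 36.9% in CD8α+ cells (20.8% higher), so the number of calls is not a result about these genes. The median change was 0.65 in CD8α- cells, against 0.14 for all genes, and 0.59 in CD8α+ cells, against 0.09. Each array centred on its own median moved the median of all genes to 0.81 and 0.78, and the calls to 26 higher with 0 lower in CD8α- cells and 24 higher with 0 lower in CD8α+ cells. Under that centring 4798 of all 8763 genes were called higher and 503 lower in CD8α- cells, and 4660 higher and 446 lower in CD8α+ cells, so most genes were called higher. The sum of the macrophage markers, higher on every RAG2-/- array, and the difference in processing move with each of these differences. So does the sum of natural killer cell markers, at 807 to 3510 against 256 to 257 in CD8α- cells and 642 to 1710 against 216 to 244 in CD8α+ cells. Gzma was the highest of these markers on every RAG2-/- array. Klre1, Gzmb and Eomes reached 5 only on RAG2-/- CD8α- replicate 2 (6.11, 6.04 and 5.63), so a rise of the whole list is not shown. Of the 9 listed 3 were tested, of which 2 were called higher in CD8α- cells and 1 in CD8α+ cells, while Ncr1 and Prf1 were below 5 on all arrays. The part of these in the result was not tested.

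There were 8 genes that were higher in RAG2-/- cells of both subsets: Dtx3l, Ifi204, Ifi44l, Ifit3, Ifitm3, Rsad2, Rtp4 and Samd9l. Mx1, Oas2, Parp9 and Trim30a were called higher in CD8α- cells alone, and Cmpk2, Lgals3bp and Oasl2 in CD8α+ cells alone, without a call in the test of the difference. Pnpt1 was lower in both subsets and Herc6 in CD8α+ cells. A dimmer probe set of Herc6 was lower in both subsets, with changes of -1.53 in CD8α- cells and -1.79 in CD8α+ cells (limma adjusted p among probe sets = 0.00665 and 0.00421), against -0.17 in CD8α- cells for the probe set used.

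Ifi44l, a GTP-binding-like protein gene that restrains viral replication and feeds back on the response, was below 5 on all wild type arrays, with 2.99 and 2.75 in CD8α- cells and 2.81 and 2.78 in CD8α+ cells. On RAG2-/- arrays it read 10.75 and 9.19 in CD8α- cells and 8.77 and 9.15 in CD8α+ cells. The genotypes were far apart in both subsets. Ifi44l was at least 31.4-fold higher in RAG2-/- CD8α- cells (adjusted p = 0.000282) and at least 15.6-fold higher in RAG2-/- CD8α+ cells (adjusted p = 0.000569). It passed the filter through RAG2-/- arrays alone. Another probe set rose likewise, from below 5 in both wild type groups to group means of 9.71 and 9.07, while the remaining one stayed at group means of 2.67 to 3.04. Its stretch of promoter shown above has 1 core, next to the start, and its neighbour Ifi44 had no probe set of its own.

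**Figure D4:**
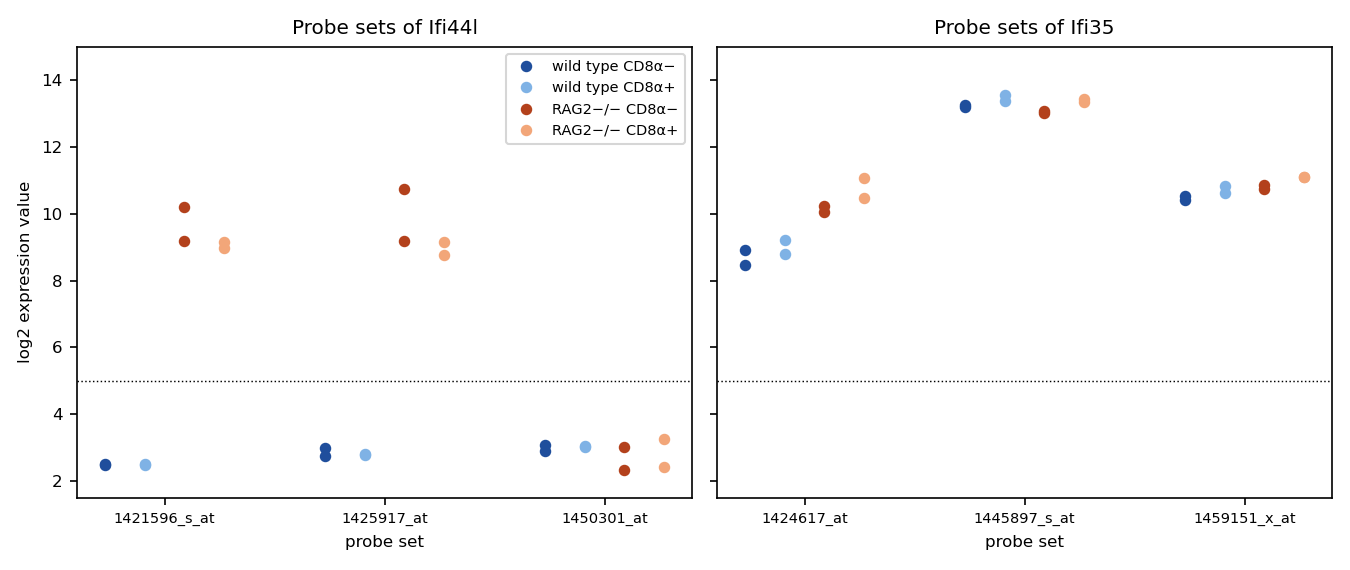
Log2 expression value on each array for every probe set of Ifi44l (left) and Ifi35 (right), with the dotted line at 5. Both upper probe sets of Ifi44l separate the genotypes and the remaining one does not reach 5. For Ifi35 the probe set with the lowest signal is higher in RAG2-/- cells, by 1.45 and 1.77, and the one with the highest signal differs by -0.18 and -0.07.

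Rsad2, whose values stand above, rose by 2.02 (SE 0.28, adjusted p = 0.00246) in RAG2-/- CD8α- cells and by 3.36 (SE 0.28, adjusted p = 0.000754) in RAG2-/- CD8α+ cells. Rtp4 rose by 2.88 (SE 0.49, adjusted p = 0.00481) in CD8α- cells and was at least 4.47-fold higher in CD8α+ cells (adjusted p = 0.00338). The RAG2-/- arrays of both genes lay above the wild type arrays of the same subset. Both kept their calls with each array left out in turn.

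Ifit3 rose by 1.54 (SE 0.41, adjusted p = 0.0227) in CD8α- cells and was at least 2.16-fold higher in CD8α+ cells (adjusted p = 0.00895). Ifit3 lost the CD8α- call without wild type CD8α- replicate 1 (1.75, adjusted p = 0.0717), replicate 2 (1.33, 0.126) or RAG2-/- CD8α- replicate 1 (1.15, 0.104), and the CD8α+ call without wild type CD8α+ replicate 1 (1.70, 0.0627) or RAG2-/- CD8α+ replicate 1 (1.67, 0.0509). The CD8α+ call also went with values below 5 set to 5 (1.11, 0.0505). Ifit1 and Ifit2 were not called in either subset. Ifitm3 rose by 0.94 (SE 0.28, adjusted p = 0.0348) and 1.45 (SE 0.28, adjusted p = 0.0085). Its CD8α- call was lost when any array but RAG2-/- CD8α- replicate 2 was left out, with changes from 0.53 without RAG2-/- CD8α- replicate 1 to 1.11 without wild type CD8α- replicate 1 and adjusted p from 0.0553 to 0.174; its CD8α+ call was lost without wild type CD8α+ replicate 1 (1.38, 0.0553).

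Samd9l, which restrains translation, read 11.35 and 10.93 in wild type CD8α- cells and 12.89 and 12.41 in RAG2-/- CD8α- cells, and 11.10 and 10.88 against 12.38 and 12.47 in the CD8α+ cells of wild type and RAG2-/- mice. The genotypes did not overlap, with changes of 1.51 (SE 0.24, adjusted p = 0.00367) and 1.44 (SE 0.24, adjusted p = 0.0048). Dtx3l read 9.65 and 9.81 against 11.18 and 10.78 in CD8α- cells and 9.09 and 9.47 against 10.84 and 10.55 in CD8α+ cells, changes of 1.25 (SE 0.23, adjusted p = 0.00617) and 1.41 (SE 0.23, adjusted p = 0.00457). A second probe set of Dtx3l gave 0.23 and 0.55, neither called. Ifi204, below 5 on every wild type array (4.06 and 4.35 in CD8α- cells, 4.07 and 4.13 in CD8α+ cells), read 6.78 and 5.62 in CD8α- cells and 6.03 and 5.92 in CD8α+ cells of RAG2-/- mice. It was at least 2.29-fold and 1.97-fold higher (adjusted p = 0.00556 and 0.00762). Like Ifi44l it passed the filter through RAG2-/- arrays alone, so a difference between genotypes was built into its passing. It lost the CD8α+ call without wild type CD8α+ replicate 1 (1.85, 0.0506) and with values below 5 set to 5 (0.98, 0.0661).

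Among the genes called in CD8α- cells alone, Oas2 rose by 1.76 (SE 0.35, adjusted p = 0.00823), Parp9 by 1.16 (SE 0.30, adjusted p = 0.0224), Trim30a by 0.93 (SE 0.22, adjusted p = 0.015) and Mx1 by 0.80 (SE 0.25, adjusted p = 0.0378). Oas2 lost the call without wild type CD8α- replicate 1 (adjusted p = 0.0508) or replicate 2 (0.0538), Parp9 without these (0.0771 and 0.117) or RAG2-/- CD8α- replicate 1 (0.0849), and Trim30a without wild type CD8α- replicate 1 (0.0809) or RAG2-/- CD8α- replicate 2 (0.0648). Mx1 lost it without wild type CD8α- replicate 1 (0.0963) or 2 (0.17), RAG2-/- CD8α- replicate 1 (0.157) or either RAG2-/- CD8α+ array (0.0533). A second probe set of Trim30a changed by -0.10 in CD8α- cells and -0.68 in CD8α+ cells, so the direction for this gene depends on the probe set.

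Among the genes called in CD8α+ cells alone, Cmpk2 rose by 1.80 (SE 0.27, adjusted p = 0.00371) and kept its call with each array left out. Oasl2 was at least 1.24-fold higher (adjusted p = 0.0289), and lost the call without any 1 CD8α+ array (0.15 and 0.0718 without wild type replicates 1 and 2, 0.123 and 0.0797 without RAG2-/- replicates 1 and 2) or without either wild type CD8α- array (0.0589). Most of the Oasl2 change lay below the level of 5: with values below 5 set to 5 it was 0.31 (adjusted p = 0.573), and with an offset of 16 it was 0.88 (adjusted p = 0.106). Lgals3bp, a secreted glycoprotein gene, rose by 2.06 (SE 0.63, adjusted p = 0.0392), and lost the call without wild type CD8α+ replicate 1 (1.09, 0.164), without RAG2-/- CD8α+ replicate 1 (0.163) or 2 (0.0907), or without either wild type CD8α- array (0.0758). Its 2 wild type CD8α+ values, 3.48 and 5.41, lay far apart. In CD8α- cells it read 4.58 and 4.75 in the wild type and 5.89 and 6.98 in RAG2-/- mice, with no overlap. That change, 1.77 (SE 0.63, adjusted p = 0.0582), was not called, but was called under other settings, among them quantile normalization (1.94, 0.0431), limma-trend (0.0416) and values below 5 set to 5 (1.44, 0.0235).

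Pnpt1 read 8.93 and 8.60 in wild type CD8α- cells and 8.13 and 8.24 in RAG2-/- CD8α- cells, and 8.96 and 9.09 against 8.07 and 7.83 in the CD8α+ cells of wild type and RAG2-/- mice. It fell in both, with changes of -0.58 (SE 0.19, adjusted p = 0.0471) and -1.08 (SE 0.19, adjusted p = 0.00638), but with each array centred on its median the changes were 0.08 and -0.40, and neither was called. The CD8α- call of Pnpt1 was lost when any 1 of the 8 arrays was left out (adjusted p from 0.0531 without either RAG2-/- CD8α+ array to 0.221 without wild type CD8α- replicate 1). Herc6 fell in CD8α+ cells, with a change of -0.71 (SE 0.20, adjusted p = 0.0332), which was -0.03 and not called after centring. It lost the call without wild type CD8α+ replicate 1 (0.0502) or 2 (0.141), RAG2-/- CD8α+ replicate 1 (0.0956) or 2 (0.105), or either wild type CD8α- array (0.0604).

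There were 15 genes called between genotypes in neither subset, among them Ifit1, Oas1a, Ddx60, Isg20, Ifi27 and Xaf1, all of which were called lower in CD8α+ than in CD8α- cells of both genotypes. Their changes were 0.59 and 0.23 for Ifit1, 0.73 and 0.24 for Oas1a, and 0.00 and 0.22 for Xaf1 in CD8α- and CD8α+ cells. For Ifi35 the probe set with the highest signal gave -0.18 and -0.07, neither called. The one with the lowest signal rose by 1.45 and 1.77 (limma adjusted p among probe sets = 0.00865 and 0.00472), and the remaining one gave 0.33 and 0.39. Adar and Sp100, also among the 15, had dimmer probe sets that differed from those used. For Adar they gave 1.18 and -0.45 in CD8α- cells (limma adjusted p among probe sets = 0.0243 and 0.15). For Sp100 the dimmer one gave -1.26 in CD8α- and -1.38 in CD8α+ cells (0.0162 and 0.0126).

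**Figure D5:**
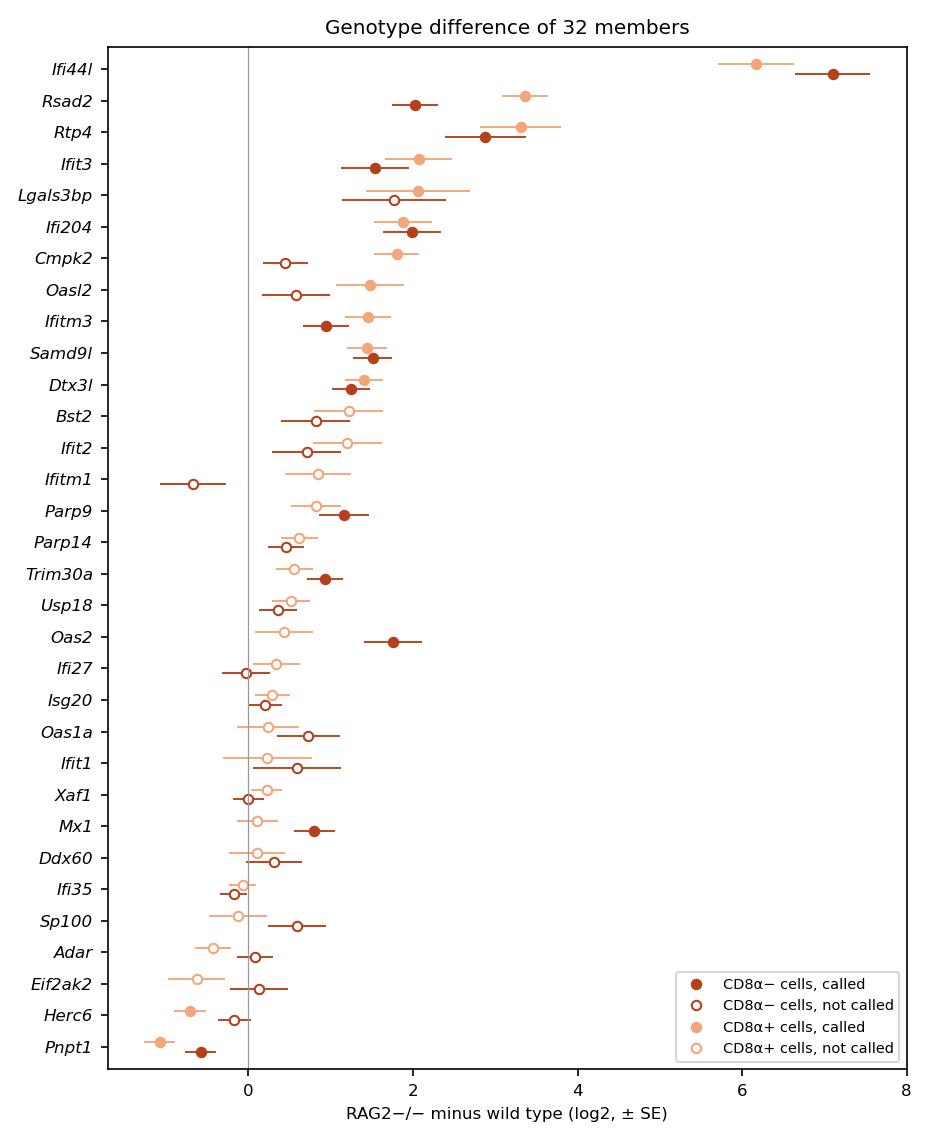
Difference between RAG2-/- and wild type cells for each of the 32 tested genes in CD8α- and CD8α+ cells, in log2 units with standard errors; filled points passed the test. Ifi44l lies far to the right in both subsets, and Pnpt1 and Herc6 are the called genes left of 0.

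The RAG2-/- CD8α- arrays differed most between themselves in these genes. Of the 32, 8 differed by at least 1 log2 unit between the 2 arrays (Ifit1, Ifit2, Ifi44l, Oasl2, Eif2ak2, Ifi204, Ifitm1 and Lgals3bp), against 1 in wild type CD8α- cells (Ddx60), 2 in wild type CD8α+ cells (Rtp4 and Lgals3bp) and 1 in RAG2-/- CD8α+ cells (Oas1a). The median difference between the 2 arrays, without sign, was 0.53 for the 32 genes and 0.28 for all genes in that group. In the other groups it was 0.21 to 0.26 for the 32 and 0.20 to 0.27 for all. Replicate 1 was the higher in 23 of the 32 genes. Replicate 2 is the array with neutrophil transcripts. It also stood above replicate 1 in natural killer cell markers such as Gzma (11.53 against 9.44). Most markers of CD8α+ dendritic cells were higher on replicate 2. These were Cd8a (7.7 against 6.9), Itgae (6.29 against 5.56), Tlr3 (9.9 against 8.77), Cadm1 (9.25 against 7.54), Irf8 (13.25 against 11.5) and Naaa (12.44 against 10.97). Xcr1 was higher too but below 5 on both arrays (3.36 against 2.72). Batf3 was level (12.16 against 12.14), and Wdfy4 (13.77 against 14.18) and Ly75 (6.98 against 7.86) were lower. Of the erythroid markers Slc4a1 was higher (9.06 against 5.4), Alas2 stayed below 5 (4.7 against 2.46) and Hba-a1 read 2.23 on both arrays. The part of these in the spread was not tested. With both arrays that carried neutrophil transcripts left out, a choice made after seeing the data, 18 and 17 of the 32 were called between subsets in the wild type and RAG2-/- mice, and 15 and 15 between genotypes in CD8α- and CD8α+ cells. The genes called were not the same: between subsets in RAG2-/- mice Rsad2, Cmpk2, Parp14 and Herc6 lost the call (adjusted p = 0.116, 0.198, 0.071 and 0.0758), and Ifit2, Ifi44l, Bst2 and Eif2ak2 gained it (0.0306, 0.0216, 0.0467 and 0.0304).

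The genes upstream were described from lists of the pathway. Of 17 genes for ligands, receptor and signalling, 13 were tested, and Ifnb1, Ifna4 and Socs1 did not pass the filter. Ifnb1 and Ifna4, the ligands, read 2.10 to 2.55 on all 8 arrays. Between subsets 0 of the 13 were higher and 1 lower in wild type CD8α+ cells (median -0.16), and 1 higher and 3 lower in RAG2-/- mice (median -0.35). These are 7.69% and 30.8% called, against 17.1% and 21.8% of all genes, so the wild type share is below the background. The receptor gene Ifnar1 and the kinase genes Jak1 and Tyk2 were not called between subsets in the wild type, nor were Stat2 and Irf9: Stat2 changed by -0.71 (SE 0.27, adjusted p = 0.13) and Irf9 by -0.09 (SE 0.22, adjusted p = 0.853). The 1 called was Ptpn6, which encodes the phosphatase SHP-1 and changed by -1.41 (SE 0.30, adjusted p = 0.0174).

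Between genotypes, 8 of the 13 were higher in RAG2-/- CD8α- cells and 5 in RAG2-/- CD8α+ cells, and 0 were lower, with medians of 0.65 and 0.52. These are 61.5% and 38.5% called, against 40.5% and 36.9% of all genes (23.4% and 20.8% higher), so the CD8α+ share called is near the background. Irf7, the factor that amplifies interferon production and is itself an interferon target, read 7.43 and 7.03 in wild type CD8α- cells and 6.72 and 7.77 in wild type CD8α+ cells. On RAG2-/- arrays it read 10.62 and 10.49 in CD8α- cells and 11.28 and 10.10 in CD8α+ cells, well above every wild type array in both subsets. It rose by 3.32 (SE 0.46, adjusted p = 0.0024) in CD8α- cells and 3.44 (SE 0.46, adjusted p = 0.00244) in CD8α+ cells, and was not called between subsets, with a wild type change of 0.02 (SE 0.46, adjusted p = 0.996). Ifnar1 rose by 1.05 and 0.93, Jak1 by 1.48 and 1.10, Tyk2 by 0.83 and 0.90 and Irf9 by 0.65 and 0.84, all called.

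Of 12 genes for sensors and adaptors upstream of interferon, 11 were tested, and 1 was higher and 4 lower in CD8α+ cells of each genotype (45.5% called, against 17.1% of all genes in the wild type and 21.8% in RAG2-/- mice). Tlr7, a sensor of single-stranded RNA, was at least 13.4-fold lower in the wild type and at least 22.4-fold lower in RAG2-/- mice. Ddx58, which encodes RIG-I, was at least 7.31-fold and 13.1-fold lower. Both were below 5 on all CD8α+ arrays and passed the filter through CD8α- arrays alone, so their difference was built into their passing. Ifih1, which encodes MDA5, changed by -1.61 and -1.49, and the DNA pathway adaptor gene Sting1 by -1.71 and -1.98. Tlr3, a sensor of double-stranded RNA and a known marker of CD8α+ cells, rose by 4.36 and 3.46. Between genotypes, 4 were higher and 2 lower in RAG2-/- CD8α- cells, and 2 higher and 2 lower in CD8α+ cells (54.5% and 36.4% called, against 40.5% and 36.9% of all genes). Mavs, the adaptor of RIG-I and MDA5, fell, with changes of -2.43 (SE 0.21, adjusted p = 0.000557) and -2.29 (SE 0.21, adjusted p = 0.000899), and Myd88 rose by 1.36 and 0.79.

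Of 40 other interferon-stimulated genes, 31 were tested. In wild type CD8α+ cells 4 were higher and 6 lower (32.3% called, against 17.1% of all genes; median -0.25), and in RAG2-/- mice 6 were higher and 8 lower (45.2%, against 21.8%; median -0.20). This list thus had members on both sides. The surface protein gene Ms4a4c read 14.06 and 13.53 against 10.65 and 9.58 in the wild type, a change of -3.68 (SE 0.46, adjusted p = 0.00186), and Slfn8 changed by -1.79 (SE 0.19, adjusted p = 0.000907). In the other direction Parp12 rose by 1.26 (SE 0.20, adjusted p = 0.00513) and the peptide transporter gene Tap1, needed for class I presentation, by 0.90 (SE 0.24, adjusted p = 0.0414).

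Between genotypes 9 of the 31 were higher and 4 lower in RAG2-/- CD8α- cells (median 0.16, against 0.14 for all genes). In CD8α+ cells 7 were higher and 3 lower (median 0.09, against 0.09). These are 41.9% and 32.3% called, against 40.5% and 36.9% of all genes, again near the background. Slfn5, of the Schlafen family, read 6.78 and 7.39 against 9.74 and 9.46 in CD8α- cells of wild type and RAG2-/- mice, and 6.54 and 6.49 against 9.12 and 8.67 in CD8α+ cells. It rose by 2.51 (SE 0.26, adjusted p = 0.00109) and 2.38 (SE 0.26, adjusted p = 0.00147). Trim21, an intracellular antibody receptor, rose by 1.16 and 1.16. The guanylate-binding protein genes Gbp2 and Gbp3 fell. Gbp2 changed by -1.27 (SE 0.40, adjusted p = 0.0426) and -1.81 (SE 0.40, adjusted p = 0.0141), and Gbp3 by -0.65 (SE 0.18, adjusted p = 0.0253) and -1.11 (SE 0.18, adjusted p = 0.00431).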

How the data were processed

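The authors deposited log2 expression values per probe set. Per the submitters' processing notes these came from GCRMA on all arrays, with affy named for the wild type arrays alone; the notes give no versions and do not say which arrays were normalized as 1 set. Of 45101 probe sets, 34945 carried 1 gene name, 932 several, 9160 none, and 64 were controls. Probe sets at log2 5 or more on at least 2 of 8 arrays were kept, and the 1 with the highest mean over the 8 arrays stood for its gene. Values were used as deposited. All 8 arrays entered 1 limma fit (version 3.58.1, R 4.3.3, eBayes), with a mean per group, 4 residual degrees of freedom and 5 two-sided comparisons; it was tested on simulated data. Precision is limited by having 2 arrays a group. Same-numbered arrays did not deviate together (r from -0.146 to 0.112), so the numbers were not used as pairs. All genes of the list are named. They and the pathway lists were chosen with earlier results of these data known. Genes that neighbour each other were found in RefSeq's gene order (GRCm38.p6). Other settings were quantile normalization, median centring, other filters, an offset of 16, values below 5 set to 5, the mean of probe sets or each alone, limma-trend, a fit of the compared groups alone, the replicate block, a log2 change of 1, and each array left out. Plots used matplotlib 3.10.9 (Python 3.11.15).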

Additional observations from a re-analysis of the deposited data

How the results depend on the processing

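Between subsets the number of the 32 genes called was 18 in the wild type and 15 to 18 with each array left out. In RAG2-/- mice it was 17, 12 to 21 with each array left out, and 10 when only these groups were fitted, where Cmpk2, Herc6, Ifitm1, Ifitm3, Parp14, Rsad2 and Usp18 lost the call. Between genotypes 13 were called in CD8α- cells, 6 to 15 with each array left out, and 13 in CD8α+ cells, 7 to 16. Centring each array on its median gave 26 and 24. The difference between the gaps had 0 calls under every setting run, 0 to 0 with arrays left out. With the replicate block the counts were 19, 17, 13, 14 and 0, beside 1453, 1717, 3457, 3071 and 3 of all genes. With its numbers exchanged in RAG2-/- CD8α+ cells, tried after seeing the data, they were 19, 17, 12, 14 and 0. Of all genes that setting called 1505, 1847, 3570, 3247 and 3. The block ended the calls of Herc6 (RAG2-/- gap, adjusted p = 0.0537; CD8α+ genotype, 0.0505), Mx1 (CD8α- genotype, 0.0512) and Pnpt1 (CD8α- genotype, 0.0643). It added calls of Bst2 in all 4 comparisons (0.0272 and 0.00634 between subsets in the wild type and RAG2-/- mice, 0.0196 and 0.00698 between genotypes in CD8α- and CD8α+ cells), of Lgals3bp (CD8α- genotype, 0.0456) and of Ifit2 (CD8α+ genotype, 0.0451). Calls kept under every setting numbered 13 of 18, 10 of 17, 6 of 13 and 6 of 13.

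Some genotype changes turned their sign. After centring, the change of Ifi35 was 0.48 in CD8α- and 0.61 in CD8α+ cells, and that of Pnpt1 0.08 in CD8α- cells. For Ifi35 the mean of its probe sets gave 0.70 in CD8α+ cells, and its probe set with the lowest signal gave 1.45 and 1.77. The dimmer probe set of Trim30a gave -0.10 and -0.68, and that of Sp100 -1.26 in CD8α- cells. With 2 arrays a group, 1 array decides many calls near the threshold, and genotype cannot be told apart from the processing.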
